A study of Drosophila melanogaster with 12 samples.

Results

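The comparison of 18 °C with 25 °C within the thermocycle day was made on 6 of the 12 arrays of the series. The cold phase (cryophase) was covered by the arrays titled CA2, CA6 and CA10, at 18 °C, and the warm phase (thermophase) by those titled CA14, CA18 and CA22, at 25 °C. The number in a title is the hour of the cycle, counted from the step down to 18 °C, so the step up to 25 °C fell between the 10-h and the 14-h array. All arrays held RNA from heads of adult y w; tim01 flies. They carry a mutation of timeless that stops the molecular clock, as well as the body colour and eye colour markers yellow and white, and they were kept in constant darkness. The remaining 6 arrays (AA) came from the following day, when flies of the same genotype stayed at 25 °C at the same clock times, and they served here for the spread between arrays and for a test against the same hours without a temperature step. Each array was 1 time point and was made from the pooled heads of many flies, separated by breaking and sieving frozen animals. Sex and age were not given in the labels. Nor do the labels say whether the times came from separate cultures, so the p values compare the phases only with the variation among hours of 1 phase, which may be technical.

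Flies do not regulate their body temperature, so a temperature step reaches every tissue of the head, from the retina and brain to the fat body that lines the head capsule. Heat shock proteins and their cochaperones refold or hold damaged proteins, and their genes are the textbook targets of heat shock factor. The chaperonin CCT is a ring-shaped machine that folds actin and tubulin. Membrane lipids stiffen in the cold, and lipoproteins, lipases and the enzymes of phospholipid synthesis supply and remodel them. In flies with a working clock, a temperature cycle also sets the phase of daily gene expression, as light does.

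Differences between the phases were small. Over the 13966 probe sets, signals are given on the log2 scale, on which a difference of 1 is a doubling of signal, and the middle 50 percent of the differences of cold minus warm lay between -0.08 and 0.07. A difference of 0.5 or more was seen in 99 probe sets that were higher and 43 that were lower at 18 °C, of which 49 and 18 did not overlap between the phases. At 1 or more there were 3 and 2. The limma test called 1 probe set at an adjusted p under 0.05 (0.00716 percent of those tested), and 8 lay under 0.1. At an unadjusted p under 0.05 there were 569 higher and 569 lower (4.07 percent in each direction). The 3 cold values all lay above the 3 warm values in 775 probe sets (5.55 percent) and all below them in 772 (5.53 percent), and an exact permutation test of 3 arrays against 3 cannot give a two-sided p under 0.10.

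The CA 18-h array, in the middle of the warm phase, stood apart from the others. It held the highest of the 6 CA values in 31.3 percent of probe sets, against 11.5 to 17.3 percent for each of the others, and its mean signal over 9 spike-in control probe sets was 7.91, against 8.65 to 9.13 on the remaining 11 arrays. By weight, estimated from residuals, the AA 2-h array at 0.41 came close to the lowest of the 12, the CA 18-h array at 0.38. Of the probe sets with an unadjusted p under 0.05, it was the warm value farthest from the cold phase in 73.3 percent of those higher at 18 °C and in 63.3 percent of those lower. Without it, 317 were higher (2.27 percent) and 331 lower (2.37 percent), among them 232 and 247 of the earlier 569 in each direction, and none passed the adjusted threshold, the smallest adjusted p being 0.0809. The counts and most of the differences described are therefore also given without this array, and its part in the results was not tested beyond this.

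**Figure D1:**
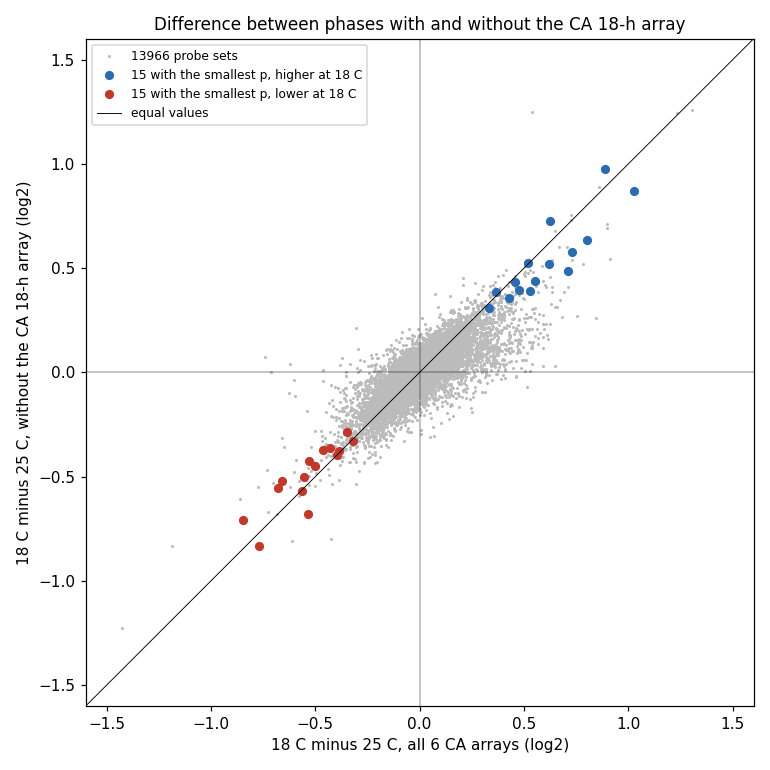
Difference between phases (18 °C minus 25 °C, log2) of 13966 probe sets with all 6 CA arrays, on the horizontal axis, and without the CA 18-h array, on the vertical axis, with the 15 probe sets of the smallest p in each direction coloured. The 30 coloured probe sets have phases that do not overlap, so their sign without the array is fixed in advance and only the size can change. Those higher at 18 °C span 0.33 to 1.03 with the array and 0.31 to 0.98 without it. Those lower span -0.85 to -0.32 and -0.83 to -0.28.

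The probe set past the threshold belonged to CG34376 and was higher in the cold. It read 6.40, 6.49 and 6.41 at 2, 6 and 10 h and 5.86, 5.92 and 5.96 at 14, 18 and 22 h. The phases were apart on the first array after each step and the spread within them was narrow, at 6.43 ± 0.05 against 5.91 ± 0.05 (SD, n = 3). The difference of 0.52 (SE 0.07, limma adjusted p = 0.0377), a factor of 1.43, was again 0.52 without the CA 18-h array, where the adjusted p was 0.0809. The gene has 3 probe sets, and the other two differed by -0.07 and -0.03. Over the 20 alternatives it passed in 11, with adjusted p values from 0.0195 to 0.584.

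CG5853 and CG10621 had the largest differences among the 30 probe sets named for the smallest p. The CG5853 signal was 7.91, 7.62 and 8.07 in the cold and 7.11, 6.53 and 6.87 in the warm phase. The lowest cold value was thus above the highest warm value, and the warm values were at their lowest at 18 h. The difference was 1.03 (SE 0.16, limma adjusted p = 0.0861), and 0.87 when the CA 18-h array was left out. CG10621 read 7.17, 7.28 and 7.09 against 6.06, 6.47 and 6.36. Here the 18-h value was the nearest to the cold phase, and the difference of 0.89 (SE 0.15, limma adjusted p = 0.0861) was 0.98 without it.

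All 15 named probe sets of each direction had phases that did not overlap, as the choice by p favours, and none but that of CG34376 passed the adjusted threshold. Among those higher in the cold were regulators of transcription and signalling. The product of anterior open (aop) is an ETS repressor of the Ras pathway. Its probe set read 6.82, 6.71 and 6.90 against 6.22, 5.65 and 6.42, a difference of 0.71 (SE 0.16), or 0.49 without the CA 18-h array. Split ends (spen), a large RNA-binding corepressor, was higher by 0.37 (SE 0.08), or 0.38 without the array, with cold values of 6.08 to 6.28 and warm values of 5.78 to 5.87. For zfh2, a homeodomain protein with zinc fingers, the difference was 0.55 (SE 0.12), and for Star (S), which moves EGF receptor ligands to the cell surface, it was 0.48 (SE 0.10). The nuclear positioning gene klarsicht (klar) was higher by 0.43 (SE 0.08), and the sarcomere gene bent (bt), which encodes projectin, by 0.62 (SE 0.11). Without the array zfh2, S, klar and bt differed by 0.44, 0.40, 0.36 and 0.52. None of these 6 overlapped between the phases. The second probe sets of zfh2, klar and bt differed by 0.18, 0.17 and -0.02.

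Couch potato (cpo), an RNA-binding protein known from diapause in flies, was higher on all 3 of its probe sets. The first of them read 6.86, 7.07 and 6.99 in the cold against 6.66, 6.60 and 6.67, the brightest 7.90, 8.02 and 7.81 against 7.57, 7.22 and 7.64, and the dimmest 4.69, 4.80 and 4.95 against 4.49, 4.16 and 4.48. No probe set of cpo overlapped between the phases. The differences were 0.33 (SE 0.07), 0.43 (SE 0.11) and 0.44 (SE 0.12), and 0.31, 0.30 and 0.33 without the CA 18-h array, with limma adjusted p values of 0.242, 0.311 and 0.341. The brightest probe set, however, differed by 0.39 between the same hours on the day at constant 25 °C. Of 1209 genes with 2 or more probe sets, 51 had 1 at an unadjusted p under 0.01. All probe sets had the same sign in 31 of these, and in 12 at least 2 were under 0.05 in the same direction. The share of all 1209 genes whose probe sets had the same sign is not given, so these counts are a description.

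**Figure D2:**
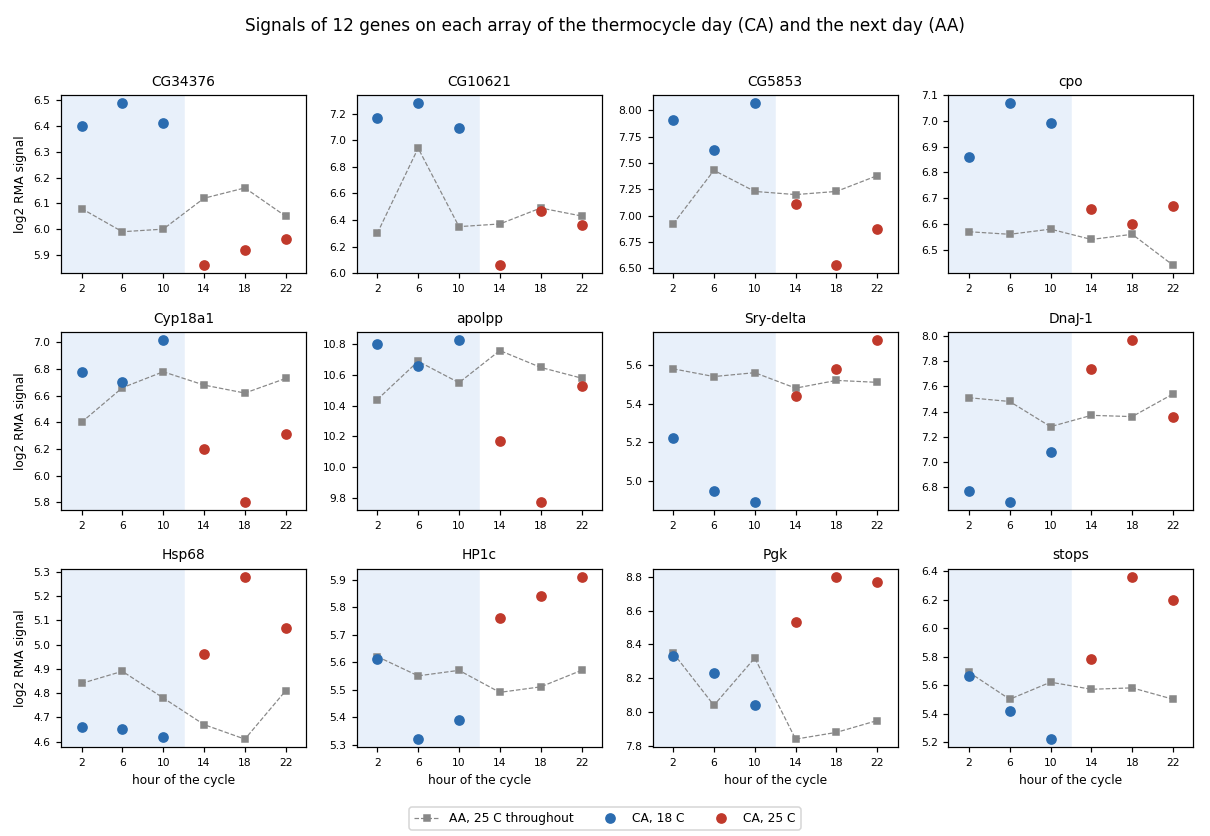
Log2 RMA signal of 12 genes (1 probe set each) against the hour of the cycle on the thermocycle day (CA, circles, blue at 18 °C and red at 25 °C) and on the next day at 25 °C (AA, grey squares), 1 array per point, with the hours that were cold on the CA day shaded. For CG34376 the 3 cold values, 6.40 to 6.49, all lie above the 3 warm values of the CA day, 5.86 to 5.96, and for DnaJ-1 the cold values, 6.68 to 7.08, lie below the warm values, 7.36 to 7.97.

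Among the probe sets lower in the cold, folding factors, a glycolytic enzyme and nuclear proteins stood side by side. DnaJ-1, an Hsp40 cochaperone, read 6.77, 6.68 and 7.08 against 7.74, 7.97 and 7.36. The difference of -0.85 (SE 0.14, limma adjusted p = 0.0861) became -0.71 once the CA 18-h array was left out. Sry-delta, a zinc finger transcription factor, read 5.22, 4.95 and 4.89 against 5.44, 5.58 and 5.73 and differed by -0.56 (SE 0.09, adjusted p = 0.0861), or -0.57 without the array. Both showed no overlap. The chromodomain protein HP1c differed by -0.40 (SE 0.08) and Ntan1 by -0.53 (SE 0.12). The tRNA ligase RtcB, with cold values of 6.14 to 6.33 and warm values of 6.49 to 6.68, differed by -0.35 (SE 0.08). Without the array HP1c, Ntan1 and RtcB differed by -0.40, -0.43 and -0.28. Sidpn, a basic helix-loop-helix protein, read 6.94, 6.88 and 6.95 in the cold and 7.63, 7.17 and 7.58 in the warm phase. Its 18-h value was the one nearest the cold phase, so that its difference of -0.53 (SE 0.12) was -0.68 without that array.

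A probe set that the tables used here name by no gene, 143198_at, had the largest difference without overlap, a choice made after its values were seen. It read 8.43, 8.03 and 8.71 in the cold and 10.07, 10.22 and 9.16 in the warm phase, a difference of -1.43 (SE 0.23, limma adjusted p = 0.0861), which became -1.23 when the CA 18-h array was left out. By contrast the difference of 1.23 of Cyp4g1, a cytochrome P450 of hydrocarbon synthesis also picked after its values were seen, came from 1 array, with 8.29 at 6 h and 4.50 to 4.66 on the other 5 CA arrays. The gut markers betaTry and alphaTry stood highest on the same array, at 8.11 and 5.65 against at most 7.08 and 5.06 on the other CA arrays.

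For the same hours on the day at constant 25 °C, the differences of the 15 probe sets higher in the cold lay between -0.20 and 0.26 and those of the 15 lower between -0.01 and 0.35. The difference between the days was tested in the same limma fit. No probe set passed the adjusted threshold (0 percent), and 1104 (7.90 percent) had an unadjusted p under 0.05. For the 30 named probe sets the adjusted p lay between 0.252 and 0.699. They were chosen by the CA contrast, which is part of this difference, so the values are a description.

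The remaining results are grouped by function, with 1 probe set standing for each of 10844 genes. Over all genes 402 (3.71 percent) were higher and 467 (4.31 percent) lower in the cold at an unadjusted p under 0.05, and 532 (4.91 percent) and 635 (5.86 percent) did not overlap. Without the CA 18-h array the first 2 counts were 232 (2.14 percent) and 281 (2.59 percent). The median difference of all genes was -0.01, and 0.00 without that array. No list was tested, and no member named in these groups passed after adjustment over all probe sets in the fit to all arrays, so counts of members refer to the unadjusted p. Of the 69 lists, 16 had a median that changed sign without the CA 18-h array.

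The 8 measured CCT subunits were all lower in the cold, with a median difference of -0.28, and -0.26 without the CA 18-h array. Of these, 6 (75 percent, against 4.31 percent of all genes) had an unadjusted p under 0.05, and 4 of the 6 had one without the array too. CCT5 read 5.83, 5.46 and 5.59 in the cold and 6.05, 5.89 and 6.09 in the warm phase, a difference of -0.38 (SE 0.10). CCT6 read 7.44, 7.17 and 7.40 against 7.63, 7.63 and 7.49, a difference of -0.24 (SE 0.08). These were the 2 subunits without overlap. Over the subunits, the 6- and 10-h arrays carried the low values. The median deviation from each gene's CA mean was 0.01 at 2 h, -0.28 at 6 h and -0.24 at 10 h, and 0.19, 0.19 and 0.05 at 14, 18 and 22 h.

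Of 39 genes listed as cytosolic heat shock proteins and cochaperones, 13 (33.3 percent) were lower and 1 higher. Of the 13, 8 had an unadjusted p under 0.05 without the CA 18-h array as well. The median of the list was only -0.08, and -0.07 without the array, so most members differed little. Hsp68, an inducible Hsp70, read 4.66, 4.65 and 4.62 in the cold and 4.96, 5.28 and 5.07 in the warm phase. This was a difference of -0.46 (SE 0.09) without overlap, or -0.37 without the array. The Hsp70-Hsp90 organising protein Stip1 differed by -0.77 (SE 0.17), and by -0.83 without the array. It was lowest at 6 h, at 5.46, and its warm values were 6.55 to 6.78. The Hsp90 cochaperone Cdc37 differed by -0.38 (SE 0.12), the small heat shock protein Hsp26 by -0.40 (SE 0.13) and the exchange factor Hsp110 by -0.35 (SE 0.13). For Hsp26 much of this lay in 1 array, with 5.74 at 18 h and -0.22 without it, and Cdc37 went to -0.23 and Hsp110 to -0.32, the latter no longer at an unadjusted p under 0.05. The member that was higher, Fkbp14, is a peptidyl-prolyl isomerase of the endoplasmic reticulum rather than the cytosol. It differed by 0.35 (SE 0.14), or 0.23 without the array, where its unadjusted p was no longer under 0.05.

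**Figure D3:**
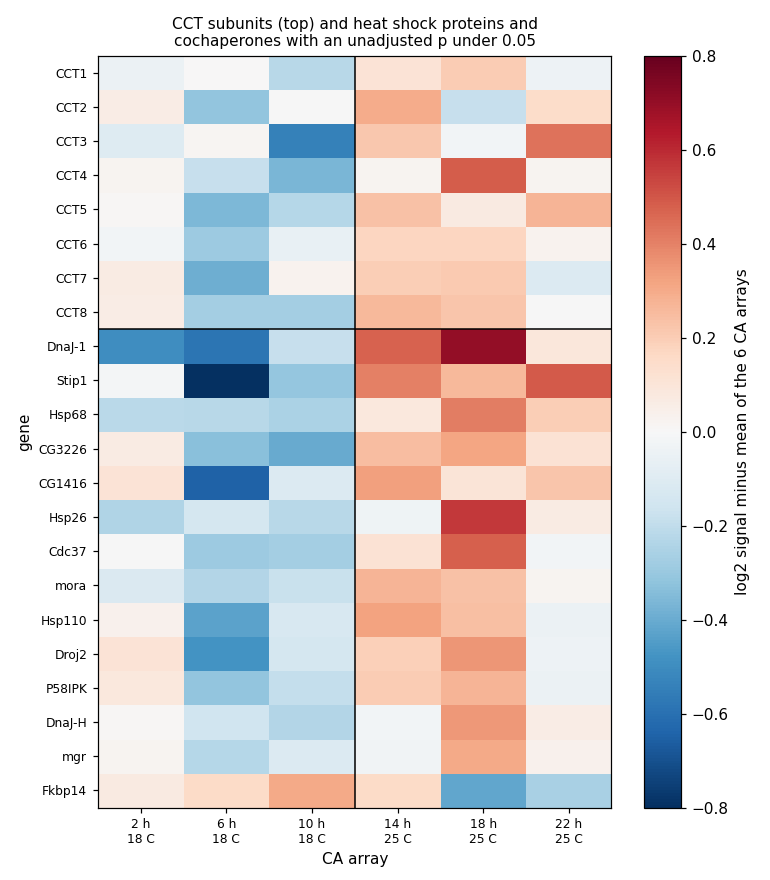
Log2 signal minus the mean of the 6 CA arrays (colour scale) for the 8 CCT subunits, above the line, and for the 14 heat shock proteins and cochaperones with an unadjusted p under 0.05, below it, on each CA array. Blue (low) cells lie mostly at 6 and 10 h among the subunits, where their median deviations are -0.28 and -0.24, and red (high) cells lie mostly in the warm phase.

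Some factors of the mitochondrion and of translation were lower too. Of 36 genes of mitochondrial import, chaperones and carriers, 5 (13.9 percent) were lower and 1 higher, and all 5 stayed under 0.05 without the CA 18-h array. The list median was -0.07 with and without it. The mitochondrial chaperonin Hsp60A read 8.79, 8.34 and 8.18 in the cold and 8.71, 9.20 and 9.26 in the warm phase, so the 2-h and 14-h arrays were about level and the phases overlapped. Roe1, the exchange factor of mitochondrial Hsp70, differed by -0.30 (SE 0.08), and by -0.31 without the array, with narrow warm values of 6.94 to 6.98. Pink1, a kinase that watches over damaged mitochondria, differed by -0.31 (SE 0.09), or -0.29 without the array. Of 37 cytosolic ribosomal proteins, 4 (10.8 percent) were lower and 0 higher, with a median of -0.04 and of -0.02 without the array. The same hours at constant 25 °C gave a list median of -0.10. The 4 were RpL17 (-0.39), RpL37-1 (-0.28), RpLP0 (-0.36) and RpL37A (-0.27), none of them overlapping, and without the array they differed by -0.33, -0.23, -0.37 and -0.35. RpL17 read 12.22, 12.15 and 11.96 against 12.29, 12.62 and 12.59.

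Among 49 translation factors 5 (10.2 percent) were lower and 3 (6.12 percent) higher. The elongation factor eEF1alpha2 read 7.67, 6.62 and 6.81 against 7.67, 8.93 and 8.06, a difference of -1.19 (SE 0.32), and of -0.83 without the CA 18-h array. Its first array of each phase was level at 7.67. The factors higher in the cold were eIF1 (0.65), eIF4G1 (0.37) and the poly(A)-binding protein pAbp (0.45). None of them kept an unadjusted p under 0.05 without the array, where they differed by 0.31, 0.15 and 0.19. All 5 of those lower did, among them eIF3d1 (-0.32, and -0.25 without) and the eIF2alpha kinase PEK (-0.23, and -0.26 without). The second probe set of pAbp differed by 0.15, with overlap, and by -0.09 without the array.

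The general transcription machinery held small differences. Of 57 genes of RNA polymerase II and the general factors, 6 (10.5 percent) were lower and 2 (3.51 percent) higher, and 8 (14 percent, against 5.86 percent of all genes) lay lower without overlap. Both subunits of TFIIE were among them. TfIIEbeta read 4.47, 4.02 and 4.22 in the cold and 4.75, 4.54 and 4.54 in the warm phase, a difference of -0.37 (SE 0.14). TfIIEalpha differed by -0.16 (SE 0.07), the Mediator subunit MED28 by -0.23 (SE 0.08) and Taf9 by -0.22 (SE 0.08). The 2 higher members were Taf3 (0.52) and Su(Tpl) (0.29), and Taf3 read 6.23 at 18 h against 7.25 and 7.06 on the other warm arrays. Without the CA 18-h array MED28 and TfIIEbeta of the lower members stayed under 0.05 and neither of the higher ones did, at 0.21 and 0.18. The list median of -0.01 was that of all genes.

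Gene-specific transcription factors leaned the other way. The list was named for zinc finger, homeobox or HMG domains but also held members outside these classes, such as vestigial and mbf1. Of its 80 genes, 14 (17.5 percent) were higher and 2 lower in the cold. The median was 0.05, and 0.04 without the CA 18-h array. The Sox protein SoxN was higher on both of its probe sets. The brighter one read 6.66, 6.84 and 6.62 against 6.30, 6.20 and 6.44, a difference of 0.39 (SE 0.12), and 0.34 without the array. It differed by 0.35 between the same hours at constant 25 °C. The second differed by 0.50 (SE 0.22) and by 0.18 without the array. Sp1 was higher by 0.25 (SE 0.08) and the Hox gene Scr by 0.25 (SE 0.08), both without overlap, or 0.24 and 0.22 without the array. Of the 14, only 5 had an unadjusted p under 0.05 without the array. The wing gene vestigial (vg), one of them, read 2.49 to 2.99, and knot (kn) and klumpfuss (klu), which were not, read 2.42 to 3.0 and 2.24 to 2.54, all under the 20th percentile of the arrays (3.69 to 3.72). The 2 lower in the cold, Sry-delta and the coactivator mbf1 (-0.31), both kept their p under 0.05.

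Genes of growth factor and developmental signalling were counted with those of hypoxia, and 7 of 51 (13.7 percent) were higher and 2 lower, 4 and 2 also without the CA 18-h array. The EGF receptor Egfr read 6.36, 6.29 and 6.50 in the cold and 6.06, 6.06 and 6.14 in the warm phase, a difference of 0.30 (SE 0.11), and 0.28 without the array. Its ligand spitz (spi) differed the opposite way by -0.35 (SE 0.11), with overlap, and by -0.26 without the array. The TGF-beta ligand Actbeta was higher by 0.44 (SE 0.13), and smoothened (smo), the transducer of Hedgehog signals, by 0.39 (SE 0.12), but by 0.28 and 0.24 without the array. Vhl, which marks hypoxia factors for degradation, differed by -0.26 (SE 0.07) without overlap, and by -0.21 without the array. For bsk and myo, with differences of 0.59 and 0.58, the 18-h array read 6.35 and 5.39, far under the 2 other warm values, and the differences without it were 0.23 and 0.19.

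Genes of the insect developmental hormones held both directions. Of 43 genes of juvenile hormone and ecdysone, 7 (16.3 percent) were higher and 2 (4.65 percent) lower, 5 and 1 also without the CA 18-h array, while the list median was -0.04. Cyp18a1, the enzyme that inactivates ecdysone by 26-hydroxylation, read 6.78, 6.70 and 7.02 in the cold and 6.20, 5.80 and 6.31 in the warm phase. The difference was 0.73 (SE 0.13, limma adjusted p = 0.129), or 0.58 when that array was left out. The nuclear receptors ftz-f1 (0.35), Hnf4 (0.33) and Hr39 (0.21) and the ecdysone-responsive factor Eip93F (0.34) were also higher without overlap. They remained under an unadjusted p of 0.05 without the array, at differences of 0.35, 0.22, 0.20 and 0.24, and Hr39 lay under the 20th percentile. The ecdysone importer Oatp74D, which another list held, was higher by 0.59 (SE 0.15), or 0.44 without the array, with cold values of 6.47 to 7.06 and warm values of 5.85 to 6.40. MsrA, a methionine sulfoxide reductase known as an ecdysone-induced gene, read 7.03, 7.30 and 6.72 against 7.83, 7.70 and 7.56 and differed by -0.68 (SE 0.18), with or without the array.

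Lipid genes held both directions. Of 27 genes of lipid storage, lipases and lipoproteins, 5 (18.5 percent) were higher and 2 (7.41 percent) lower, 4 and 0 also without the CA 18-h array. The median was -0.01, and 0.05 without it. The gene apolpp, which encodes apolipophorin, the main lipoprotein of fly blood, read 10.80, 10.66 and 10.83 in the cold and 10.17, 9.77 and 10.53 in the warm phase. Its difference of 0.60 (SE 0.15) became 0.41 without the array, and that of its second probe set of 0.40 became 0.27. The lipid transfer particle Apoltp was higher by 0.35 (SE 0.10), and by 0.42 without the array. The lipase genes Lip4 (0.39) and brummer (bmm, 0.32), the latter the main triglyceride lipase of the fat body, were higher, both without overlap, and by 0.28 and 0.27 without the array. The lipid droplet protein Lsd-2 differed by -0.66 (SE 0.29), with 8.46 at 18 h and a difference of -0.32 without that array.

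Among 31 genes of phospholipid and sphingolipid metabolism, 4 (12.9 percent) were higher and 3 (9.68 percent) lower, 2 and 2 also without the CA 18-h array. The successive enzymes of the branch that makes phosphatidylethanolamine were both higher. The ethanolamine kinase easily shocked (eas) read 6.89, 6.70 and 6.94 against 6.59, 6.23 and 6.57, and Pect, the next enzyme, 6.86, 6.48 and 6.65 against 6.28, 5.53 and 6.26. Neither overlapped between the phases. Their differences were 0.38 (SE 0.12) and 0.63 (SE 0.17), and 0.27 and 0.39 without the array. The phosphatidylinositol synthase Pis differed by -0.49 (SE 0.15) and the phosphatidylserine synthase Pss by -0.41 (SE 0.18), both with overlap, and by -0.44 and -0.39 without the array, where Pss was no longer under 0.05. Of 28 genes of fatty acid synthesis, desaturation and elongation, 2 were higher and 3 lower, 2 and 1 also without the array. Acetyl-CoA carboxylase (ACC), the first committed step of fatty acid synthesis, was higher by 0.40 (SE 0.11), or 0.47 without the array, with cold values of 8.63 to 8.99 and warm values of 8.26 to 8.56. The second probe set of ACC differed by 0.14, with overlap. The sterol-responsive factor SREBP differed by -0.26 (SE 0.11) and its escort SCAP by 0.22 (SE 0.08), neither with overlap, and by -0.26 and 0.19 without the array, where SREBP was no longer under 0.05.

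Carbohydrate enzymes were in part lower. Of 12 glycolytic genes 3 (25.0 percent) were lower and 1 (8.33 percent) higher, and all 4 kept an unadjusted p under 0.05 without the CA 18-h array. Phosphoglycerate kinase (Pgk) read 8.33, 8.23 and 8.04 in the cold and 8.53, 8.80 and 8.77 in the warm phase, a difference of -0.50 (SE 0.11, limma adjusted p = 0.234), or -0.45 without the array. The neighbouring mutase Pglym78 differed by -0.22 (SE 0.08) and the aldolase Ald1 by -0.20 (SE 0.09), and by -0.24 and -0.25 without it. The pyruvate carrier Mpc1 was higher by 0.45 (SE 0.14), but by 0.26 without the array, having read 8.35 at 18 h against 8.98 and 8.86 on the other warm arrays. The sugar-sensing factor Mondo was higher by 0.46 (SE 0.10), without overlap, and by 0.41 without the array. Malic enzyme (Men) was higher on both of its probe sets, by 0.69 (SE 0.20) and 0.35 (SE 0.16), or 0.39 and 0.24 without the array. In amino acid breakdown, the tyrosine-catabolic dioxygenase Hpd was higher by 0.43 (SE 0.11), with or without the array, at 8.30 to 8.41 against 7.74 to 8.12.

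Transport and barrier genes leaned higher. Of 27 ABC transporters 6 (22.2 percent) were higher and 0 lower, 4 of the 6 also without the CA 18-h array, and the median was 0.03 (0.07 without). The transporter snustorr (snu), needed for the lipid barrier of the cuticle, read 8.94, 8.73 and 9.12 against 8.64, 8.47 and 8.51, a difference of 0.39 (SE 0.11), or 0.36 without the array. MRP was higher by 0.23 (SE 0.09), and by 0.31 without the array. Of 28 innexin and junction genes 5 (17.9 percent) were higher and 0 lower, 3 of them also without the array, with a median of 0.10 (0.08 without). The polarity genes l(2)gl (0.34) and scrib (0.21) and the septate junction gene Cont (0.23) did not overlap, and they differed by 0.36, 0.23 and 0.21 without the array, where Cont was no longer under 0.05. The second probe set of scrib differed by 0.13, with overlap.

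Humoral immune signalling leaned the same way. Of 44 genes of the Toll and Imd pathways and related signals, 5 (11.4 percent) were higher and 1 lower, and 8 (18.2 percent, against 4.91 percent of all genes) lay higher without overlap. The pathway was represented by its ligand spatzle (spz, 0.55), the receptor Toll (Tl, 0.22) and the adaptor tube (tub, 0.40). The Imd transcription factor Relish (Rel) was higher by 0.33 and Stat92E by 0.27. The adaptor tub read 6.98, 6.98 and 7.18 against 6.85, 6.41 and 6.69. Without the CA 18-h array the differences of these 5 were 0.26, 0.21, 0.28, 0.26 and 0.26, and those of Tl and tub stayed under an unadjusted p of 0.05. For spz the 18-h value of 4.30 was far under the 5.26 and 5.12 of the other warm arrays.

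Lists of the nervous system held few members under an unadjusted p of 0.05. Of 92 genes of neuronal adhesion and axon guidance 8 (8.70 percent) were lower and 2 (2.17 percent) higher. Without the CA 18-h array 4 of the 8 and both of the 2 stayed under 0.05, and the list median of -0.03 was 0.00. The numbers higher and lower were 2 and 2 of 31 genes of synaptic vesicle release, 3 and 3 of 52 genes of neuropeptides and their receptors, 1 and 0 of 36 voltage-gated ion channels and 1 and 2 of 45 neurotransmitter receptors. Members of the beaten path family, cell surface proteins of axons, made up 4 of the 8 lower adhesion and guidance genes. Their differences were -0.32 (SE 0.10) for beat-IIIa, -0.16 (SE 0.07) for beat-IIIb, -0.24 (SE 0.09) for beat-IIIc and -0.18 (SE 0.07) for beat-Vb, all without overlap, and without the array only beat-IIIa and beat-IIIc stayed under 0.05. The microtubule protein tau was lower on both of its probe sets, with differences of -0.30 (SE 0.10) and -0.33 (SE 0.14), the first of which stayed under 0.05 without the array. Of 25 rhodopsin and phototransduction genes 3 (12 percent) were higher and 2 (8 percent) lower. The higher ones were Galphaq (0.34), Pdh (0.37) and pinta (0.36), which differed by 0.26, 0.17 and 0.24 without the array and did not stay under 0.05. The lower ones were the visual G protein subunits Ggamma30A (-0.86, and -0.61 without) and Gbeta76C (-0.24, and -0.20 without), of which Ggamma30A stayed under 0.05. Outside that list, stops, which keeps the phospholipase of the light response at its level, was lower without overlap on all 3 of its probe sets. The first read 5.66, 5.42 and 5.22 against 5.78, 6.36 and 6.20, a difference of -0.68 (SE 0.14), and -0.55 without the array. The second differed by -0.70 (SE 0.17) and the third, with an unadjusted p above 0.05, by -0.14 (SE 0.07).

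Redox and metal genes were mixed. Of 29 antioxidant and redox genes 4 (13.8 percent) were lower and 1 higher, and these 5 kept an unadjusted p under 0.05 without the CA 18-h array. They were MsrA, Pink1, the mitochondrial superoxide dismutase Sod2 (-0.32, SE 0.10) and the thioredoxin reductase Trxr1 (-0.28, SE 0.09), with the peroxide-producing oxidase Duox higher by 0.25 (SE 0.09). Sod2, Trxr1 and Duox differed by -0.25, -0.28 and 0.27 without the array. The warm values of Duox, 3.40 to 3.56, lay under the 20th percentile of the arrays. Of 33 genes of iron, copper and zinc handling 3 were lower and 1 higher, 1 and 1 also without the array, and 5 (15.2 percent, against 5.86 percent) lay lower without overlap. The haem synthesis genes Alas and Urod each differed by -0.23, and without the array by -0.22 and -0.24, where Alas was no longer under 0.05. Of 88 cytochrome P450 genes 8 (9.09 percent) were higher and 4 (4.55 percent) lower, but only 4 and 1 also without the array. Apart from Cyp18a1 these included Cyp6d4 (0.25, SE 0.08) and, lower, Cyp6w1 (-0.55, SE 0.13), which read 8.23, 7.82 and 7.81 against 8.29, 8.62 and 8.62. Without the array they differed by 0.22 and -0.50.

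**Figure D4:**
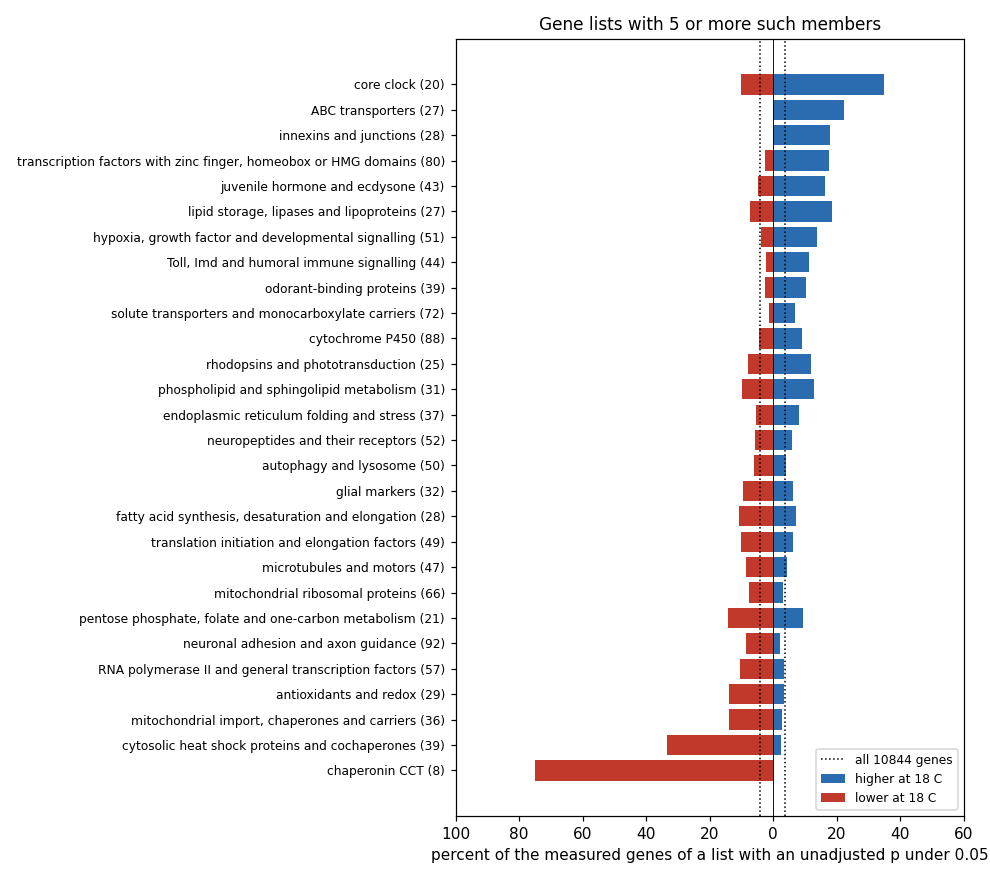
Percent of the measured genes of a list that had an unadjusted p under 0.05, higher at 18 °C to the right and lower to the left, for lists with 5 or more such members (number of measured genes in brackets), with the percent of all 10844 genes as dotted lines at 3.71 and 4.31. CCT subunits reach 75 percent and heat shock proteins and cochaperones 33.3 percent on the lower side, and core clock genes 35.0 percent on the higher side.

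Clock genes without a working clock had the largest share of members higher in the cold among the lists plotted. Of 20 core clock genes 7 (35.0 percent) were higher and 2 (10 percent) lower, 6 and 2 also without the CA 18-h array. With 1 probe set standing for each gene, the largest differences were those of per (0.90) and vri (0.80), or 0.69 and 0.64 without that array. Between the same hours of the AA day, however, per differed by 0.63, and dco by 0.37 against 0.37 on the CA day. For these genes the limma adjusted p of the difference between the days was 0.845 and 0.999. The other higher members, vri, Pdp1, cwo, ctrip and tws, differed by -0.09 to 0.10 on the AA day. Pdp1, an activator in the second loop of the clock, read 7.44, 6.86 and 7.16 against 6.68, 6.48 and 6.85, a difference of 0.48 (SE 0.14), or 0.39 without the array. The repressor cwo differed by 0.66 (SE 0.22), with 5.34 at 18 h and 0.32 without that array. Its second probe set differed by 0.17, with overlap. The 3 probe sets of tim were unlike each other. The brightest differed by 0.03, with overlap. Another read 5.97, 6.10 and 6.24 against 5.25, 5.69 and 5.50, a difference of 0.62 (SE 0.12), or 0.73 without the array. Between the same hours of the AA day this probe set differed by 0.03. The dimmest differed by 1.305 (SE 0.29), with warm values of 1.95 to 2.17. Clk and cry were the 2 lower ones, at -0.32 and -0.45, or -0.32 and -0.35 without the array. Both overlapped between the phases, and Clk lay under the 20th percentile at 6 and 10 h, at 3.38 and 3.61. The ubiquitin ligase gene ctrip (0.31) and the phosphatase subunit gene tws (0.36) differed by 0.41 and 0.29 without the array.

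The tissue markers showed what the heads contributed. Mean signals per array of 4 measured photoreceptor markers lay at 10.28 to 10.51 in the cold and 10.39 to 10.61 in the warm phase. For 6 fat body markers the ranges were 12.02 to 12.15 and 11.95 to 12.02, for 5 glial markers 7.48 to 7.67 and 7.40 to 7.57, and for 5 neuronal markers 6.30 to 6.41 and 6.28 to 6.61. The ranges of the phases met or overlapped in each of these 4 classes. Of 27 yolk and fat body protein genes 4 were higher and 0 lower, 3 and 0 also without the CA 18-h array, among them apolpp and Apoltp, and the part of the fat body marker difference (median 0.06, and 0.04 without the array) in the lipid results was not tested. In bulk heads, fewer cells of a type and less RNA per cell cannot be told apart. Transcripts of other body parts were measured too. Of 7 male reproductive tract markers Acp26Aa, Acp36DE and Acp53Ea lay under the 20th percentile, as did osk, vas and bam of 7 ovary markers. Others lay well above it, among them the testis gene Mst98Ca at 7.09 to 7.54, the eggshell genes Cp36 at 6.64 to 6.94 and Vm26Aa at 6.83 to 6.92, and the trypsin gene betaTry at 6.94 to 8.11. The 4 gut markers averaged 5.33 to 6.0 in the cold and 5.39 to 5.68 in the warm phase. All 7 male markers read highest on the CA 6-h array, some by little, as did the gut markers except LysX. Over a list of 40 male tract genes, the median deviation from each gene's CA mean was 0.155 at 6 h. On the other CA arrays it was -0.112 to -0.064. Without the 6-h array, 606 probe sets were higher and 410 lower in the cold at an unadjusted p under 0.05. The part of this array in the results was not tested beyond leaving it out.

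The first array of each phase, at 2 and 14 h, lay nearest to the temperature step. When the 2-h and the 14-h array were left out, leaving 2 arrays a phase, 45 probe sets passed the adjusted threshold in limma (0.322 percent), 19 higher and 26 lower in the cold. Of these, 35 had the CA 18-h array as the outer of the 2 warm values. Their differences in the later arrays had a median size of 0.77, while the 2-h minus the 14-h array gave a median of 0.00 in the same direction. The first arrays had the same sign as the later ones in 23 of the 45 and a smaller difference in 44. With all arrays the adjusted p of the 45 ran from 0.0377 to 0.769. These genes were selected on the later arrays, so a smaller difference on the first arrays is largely fixed by the choice, and the values are a description. Genes that neither this report's rule nor a list had already named were chosen after their values were seen.

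**Figure D5:**
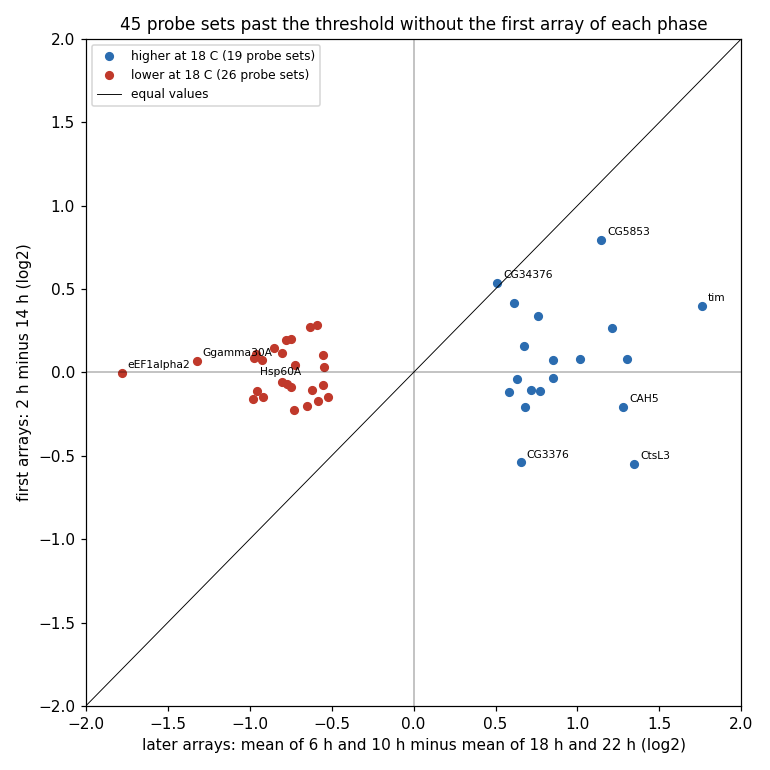
Difference between the 2-h and the 14-h array (vertical axis, log2, 1 array each) against the difference between the later arrays of each phase (horizontal axis, mean of 6 and 10 h minus mean of 18 and 22 h, log2) for the 45 probe sets past the threshold in the later arrays. Most points lie near 0 on the vertical axis, and CG34376 (0.54 and 0.51) lies on the line of equal values.

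The carbonic anhydrase gene CAH5 read 8.08 and 8.37 at 6 and 10 h and 6.79 and 7.11 at 18 and 22 h, but 7.85 and 8.06 at 2 and 14 h. Its later difference was 1.28 (SE 0.14, limma adjusted p = 0.00658) and its first difference -0.21. Ggamma30A, the gamma subunit of the visual G protein, read 6.85 and 7.17 against 8.58 and 8.08, with 7.66 and 7.58 on the first arrays, a later difference of -1.32 (SE 0.16, adjusted p = 0.00678). The first 2 probe sets of stops differed by -0.96 and -0.98 in the later arrays and by -0.11 and -0.16 on the first. Mitochondrial factors were among the 45. Hsp60A differed by -0.97 (SE 0.12, adjusted p = 0.00678) against 0.08 on the first arrays, and the mitochondrial elongation factor mEFTu1 by -0.96 (SE 0.13, adjusted p = 0.0115) against 0.11. Bellwether (blw), a subunit of ATP synthase, differed by -0.55 against 0.11.

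Further genes among the 45 were eEF1alpha2 (-1.78 later, 0.00 first), Pis (-0.80, 0.12), Cyp6w1 (-0.80, -0.06), the disulphide isomerase CaBP1 (-0.92, -0.15) and the chromatin-associated Saf-B (-0.75, 0.20). On the higher side were Vago, an antiviral secreted factor, at 1.02 later and 0.08 first, Oatp74D at 0.85 and 0.07, Oatp30B at 0.67 and 0.16 and Cyp4e3 at 0.77 and -0.11. A probe set of tim that lay under the 20th percentile except at 10 h passed too. The clock genes per (1.21 and 0.27) and cry (-0.78 and 0.19) were also among the 45. Other genes were already apart on the first arrays. CG34376 differed by 0.54 on the first and 0.51 on the later ones, CG5853 by 0.80 and 1.14, CG10621 by 1.11 and 0.78 and DnaJ-1 by -0.97 and -0.79, the last 2 not among the 45.

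Without the CA 18-h array as well, the 22-h array alone stood for the warm phase and was assumed to vary like the other groups. Then 9 probe sets (0.0644 percent) passed, a comparison added after the data were seen. These were CAH5, the dim probe set of tim, CG12744, CG30431, Sry-delta, Hsp60A, Ggamma30A, stops and EloB, at adjusted p values of 0.0288 to 0.0385, and CG30431 was not among the earlier 45. All 45 kept their sign, as their choice on the later arrays favours. Of the lists, CCT subunits had a median of -0.20 on the first and -0.33 on the later arrays, and heat shock proteins and cochaperones -0.01 and -0.14.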

How the data were processed

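Head RNA had been hybridised to Affymetrix Drosophila Genome 1 arrays. The authors deposited log2 signals after RMA, named in the submitters' processing notes without a version. RMA corrects background, forces all arrays to 1 distribution by quantile normalization and summarises each probe set, so a shift common to most transcripts would be hidden. Of 14010 probe sets, 44 controls were set aside and 13966 tested, of which 12443 carried 1 gene symbol, 327 several and 1196 none. Symbols were brought up to date through gene identifiers for 12394 (Release 6 plus ISO1 MT, for names alone). For lists, each of 10844 genes was represented by its brightest probe set on average. The number of arrays limits the precision.

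Means of 4 groups of 3 arrays (CA cold, CA warm and the same hours of AA) were fitted in limma 3.58.1 under R 4.3.3 with all 12 arrays (8 residual and 5.28 prior degrees of freedom). Tests were two-sided, with Benjamini-Hochberg adjustment over all tested probe sets and a threshold of 0.05. The script was tested on simulated data. Phases do not overlap where all 3 cold values lie on 1 side of all 3 warm values. Errors are SD of group means and SE of differences on the log2 scale.

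The members, gene lists and naming rule were chosen with earlier results of these data known. Of 2446 names written into 69 lists, 1925 were measured, and with families taken by the start of a symbol 2602 genes were in at least 1 list. Lists were described by counts and medians, without a test. The rule named every probe set past the threshold. In each direction it also named the 15 with the smallest p, the 15 with the largest difference without overlap and the 5 with the smallest p without the CA 18-h array, given 1 symbol and a mean above the 20th percentile. It further named up to 3 members of each list with the smallest p under 0.05. Other list members at that p were picked for description once their values were known. Not every named gene is described. Alternatives left out arrays in turn, took the hour as a block for the difference between days, used the CA arrays alone, or changed weights, prior, normalization or the filter on dim probe sets.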

Additional observations from a re-analysis of the deposited data

Results flagged for a closer look

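For 8 of the 30 probe sets with the smallest p, the phases did not overlap on either day and stood in opposite order on the day at constant 25 °C. All 30 were without overlap on the CA day, as the choice by p favours. The share of all probe sets that did the same on both days is not given, so the 8 are a description. No difference between the days passed in limma after adjustment (smallest adjusted p 0.252). Written as the CA difference minus the AA difference on the log2 scale, the values were 0.63 for futsch, a microtubule-associated protein of neurons, 0.63 for klar and 0.75 for zfh2. The others were -0.62 for Sry-delta, -0.85 for Pgk, -0.44 for RtcB, -0.51 for CG8578 and -0.74 for Sidpn. The other probe sets of futsch differed by -0.08 and -0.02 on the CA day. Pgk read 8.04 to 8.33 at 18 °C and 8.53 to 8.80 in the warm phase, and on the next day 8.04 to 8.35 at the hours that had been cold and 7.84 to 7.95 at the others. The AA differences were smaller, at -0.17 for futsch, -0.20 for klar, -0.20 for zfh2, 0.06 for Sry-delta and 0.35 for Pgk.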

How the results depend on the processing

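With 1 array per time the number of probe sets past the threshold rested on single arrays. The counts in this section are of probe sets, and that number was 1 with all arrays. It was 0 with the CA arrays alone, 3 with array weights, 45 without the 2- and 14-h arrays and 9 without the 18-h array too, an alternative chosen after seeing the data. It ranged from 0 to 9 when each array was left out in turn. At an unadjusted p under 0.05, 374 were lower with the CA arrays alone, 908 were lower without the 2- and 14-h arrays, and 351 were higher without the 18-h array too. Leaving out each array in turn gave 263 to 897 higher and 283 to 805 lower. Without the 2- and 14-h arrays, 2340 and 2877 did not overlap, and 1196 to 1647 and 1048 to 1830 did not when 1 CA array was left out. Phases of fewer arrays separate more easily, so these counts cannot be set against those of all arrays. The difference between the days passed in 19 without the 2- and 14-h arrays, in 7 without the 18-h array too, and in 0 to 2 when each array was left out. The 3831 differences of named probe sets kept their direction under all alternatives, 9 losing and 34 gaining the adjusted threshold. Where phases do not overlap, leaving out arrays cannot reverse a difference, so the kept direction is in part fixed by the choice. Of 690 list medians, 651 moved by less than the spread between arrays and 39 by more, and the cause was not tested. The phases hold different hours, so their difference could not be paired. For the difference between the days, the hour as a replicate block, also chosen after seeing the data, gave 0 past the threshold (smallest adjusted p 0.506, 1156 at an unadjusted p under 0.05). Deviations of same-hour arrays correlated over probe sets by -0.23 to 0.25, and 3 of the 6 CA arrays correlated best with their own hour. The labels tie the arrays of the days by the hour alone, and these values cannot show what else they share.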
